A study of Mus musculus with 36 samples.

Results

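The genes described here are named for mitochondrial ribosomal proteins, though Mrps36 among them is not placed in the ribosome. They are the genes with a single annotated symbol that begins with Mrpl or Mrps and a number, with the probe set of highest mean kept for each gene. The rule gave 71 of the 22180 genes measured, 62 of them with 1 probe set and 9 with 2. Another 7 genes of this name (Mrpl30, Mrpl33, Mrpl41, Mrpl43, Mrpl44, Mrpl53 and Mrps6) lay only on probe sets with several symbols and are not analysed here. RNA came from livers of C57BL/6 mice, wild type (WT) or of the genetically engineered model labelled TB. The title of the study names lung adenocarcinoma as the distant tumour, and its question is how such a tumour alters the daily program of the liver. Mice were kept in 12 h light and 12 h dark. Livers were taken at Zeitgeber time (ZT, hours after lights on) 0, 4, 8, 12, 16 and 20, with 3 one-colour Affymetrix arrays in each of the 12 groups, 36 in all. The labels give neither age nor sex, and do not say whether the 3 arrays of a group came from separate mice, so the p-values describe only how these samples vary, and part of that variation may be technical.

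Mitochondria keep a ribosome of their own, which makes the few proteins encoded by mitochondrial DNA, all of them subunits of the respiratory chain and ATP synthase. Its ribosomal RNAs come from mitochondrial DNA, while its proteins are nuclear-encoded, made in the cytosol and imported. Some of these proteins descend from those of bacterial ribosomes, and others are found only in mitochondria. The large subunit, whose genes are mostly named Mrpl, forms peptide bonds. The small subunit, whose genes are mostly named Mrps, reads the messenger RNA. Hepatocytes are rich in mitochondria and depend on this machinery for oxidative metabolism.

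Promoter windows of RefSeq (assembly GRCm38.p6, from 250 bases before to 50 after the annotated start of transcription) were held for 62 of the 71 genes, 68 windows in all. In 18 of these windows the annotated start lies over 100 bases inside the longest gene model, since it belongs to another transcript. Stretches of 100 bases that end just before the outermost annotated start of the gene are shown for Mrpl42, which differed between the genotypes, and for 5 other genes with a daily rhythm. They are read 5′ to 3′ in the direction of the gene. Capitals mark any of 6 words, searched on both strands, none of which contains another: CCGGAAG (the core bound by ETS factors such as GABPA), GCGCANGCG (NRF1), AAGATGGC (YY1), CACGTG (the E-box of CLOCK and BMAL1), AGGTCA (the half-site of nuclear receptors such as REV-ERB and ERR-alpha) and TTATGTAA (the D-box of DBP).
Mrpl42: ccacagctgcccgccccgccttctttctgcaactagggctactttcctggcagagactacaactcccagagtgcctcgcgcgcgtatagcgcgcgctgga
Mrpl34: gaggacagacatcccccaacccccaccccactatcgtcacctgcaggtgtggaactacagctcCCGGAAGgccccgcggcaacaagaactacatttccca
Mrps27: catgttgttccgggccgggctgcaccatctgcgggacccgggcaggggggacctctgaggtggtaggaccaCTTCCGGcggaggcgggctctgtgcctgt
Mrps16: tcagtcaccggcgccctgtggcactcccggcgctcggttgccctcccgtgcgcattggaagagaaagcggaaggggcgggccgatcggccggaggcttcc
Mrps22: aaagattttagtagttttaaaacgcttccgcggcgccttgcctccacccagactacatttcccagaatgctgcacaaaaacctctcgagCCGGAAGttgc
Mrps9: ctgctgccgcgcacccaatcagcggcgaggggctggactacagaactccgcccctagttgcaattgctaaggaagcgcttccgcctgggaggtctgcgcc
These stretches lie, in the same build, for Mrpl42 at chr10:95501950-95502049 (minus strand), Mrpl34 at chr8:71464826-71464925 (plus strand), Mrps27 at chr13:99344667-99344766 (plus strand), Mrps16 at chr14:20393635-20393734 (minus strand), Mrps22 at chr9:98601680-98601779 (minus strand) and Mrps9 at chr1:42851133-42851232 (plus strand). The ETS word stands in the stretches of Mrpl34, Mrps27 and Mrps22, on the reverse strand in Mrps27. The stretches of Mrpl42, Mrps16 and Mrps9 hold none of the 6 words. In Mrps9 an NRF1 word lies across the start itself and is not shown. Other words in the windows also lie outside the stretches. They are a YY1 word past the start in Mrpl42 and in Mrps27, and nuclear receptor words further upstream in Mrps22. A match is a description of the letters, not a bound site.

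Over all 68 windows of 300 bases, the ETS word was in 33.8% (23 windows), against 11.6% of the 21262 windows of protein-coding genes. The YY1 word was in 17.6% (12 windows) against 3.05%, and the NRF1 word in 20.6% (14 windows) against 8.58%. Of the clock-related words, the E-box word was in 10.3% (7 windows, in 5 genes) against 7.84%, and the D-box word in 0% against 0.894%. The nuclear receptor word was in 13.2% against 14.7%. Of 4 further words that are not marked in the stretches, CCAAT (NF-Y) was in 39.7% against 38.2%, GGGCGG (SP1) in 54.4% against 46.2%, TATAAA (the TATA box) in 7.35% against 12.6% and TGACGTCA (CREB) in 2.94% against 2.23%. Of the 10 genes with a window and a daily rhythm over both genotypes, 6 held the ETS word, against 23 of the 62 genes with a window, and 1 the E-box word, against 5 of 62. The other words were in 4 (CCAAT), 4 (GGGCGG), 3 (AAGATGGC), 3 (AGGTCA), 2 (GCGCANGCG), 1 (TATAAA), 1 (TGACGTCA) and 0 (TTATGTAA) of these 10. No test was made of these counts.

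Array medians lay between 36.25 and 43.25 intensity units over all probe sets. The 71 genes had mean intensities from 17.32 to 507.4, and 3 of them were under 16 on at least 1 array, so their differences on the log2(intensity + 16) scale used throughout are compressed. The levels of different genes are not compared, because each probe set has its own brightness. The hepatocyte markers, such as Alb and Ttr, were bright, with a mean between 11.3 and 11.71 on every array (7 of 8 markers measured). Markers of lung epithelium stayed between 5.54 and 5.88 (6 of 6). The circadian gene Dbp peaked at ZT 10.5 in WT and 10.1 in TB. One array, WT ZT 12 replicate 3, held skeletal muscle RNA, with a mean of 12.75 over 10 muscle markers against at most 6.6 on the other arrays. Deviations from group means of probe sets without a symbol also divided the arrays into a larger set of 24 and a smaller set of 12, with 1 array of each group in the smaller set. The labels name no such sets, and what they stand for was not tested. The main results are also given within the sets.

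Over all arrays, most genes of the mitochondrial ribosome lay slightly lower in TB liver than in WT liver. This was seen in the larger array set (67 of 71 below 0, median −0.14) and not in the smaller (33 of 71, median 0.0018). The mean difference over the 6 times of day, TB minus WT, was below 0 for 65 of the 71 genes (91.5%), against 46.2% of all genes. Its median was −0.090 on the log2 scale, against 0.0073 over all genes, and single genes ranged from −0.29 (Mrps35) to 0.065 (Mrpl38). Only Mrpl42 and Mrps31 passed the test, a limma fit with Benjamini-Hochberg adjustment over all 22180 genes at 0.05. These 2 of 71 (2.82%) compare with 0.0586% of all genes called lower, and no member was called higher, against 0.117% of all genes. At an unadjusted p under 0.05, 23 members (32.4%) were lower, against 5.35% of all genes, and 0 were higher, against 5.69%. Neither Mrpl42 nor Mrps31 passed with a pseudocount of 1 (−0.25 and −0.20) or with Xist as a covariate (−0.19 and −0.17). Mrpl42 also missed with quantile normalization (−0.20). Mrps31 also missed with replicate number as a block, over all arrays or within each ZT, and with limma's trend and robust options (−0.19 in each). In bulk tissue, fewer cells of a type and less RNA per cell cannot be told apart. Of 7 hepatocyte markers 3 were below 0 (median 0.013). Of 8 Kupffer cell markers 1 was below 0 (median 0.12, with 0.031 from the larger array set and 0.36 from the smaller), with a summed level, as the mean over the list, of 6.83 to 8.31 in WT arrays and 7.23 to 8.21 in TB arrays. Of 7 neutrophil markers 1 was below 0 and Elane was called higher (0.26 ± 0.056, adjusted p = 0.0442 in limma), with list means of 5.33 to 5.79 in WT and 5.43 to 5.85 in TB. All 10 skeletal muscle markers were below 0 (median −0.39, with −0.018 from the larger set and −1.19 from the smaller, which holds the muscle-bearing WT array), and none of 6 lung epithelium markers was (median 0.073). The part of these cells in the difference was not tested.

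**Figure D1:**
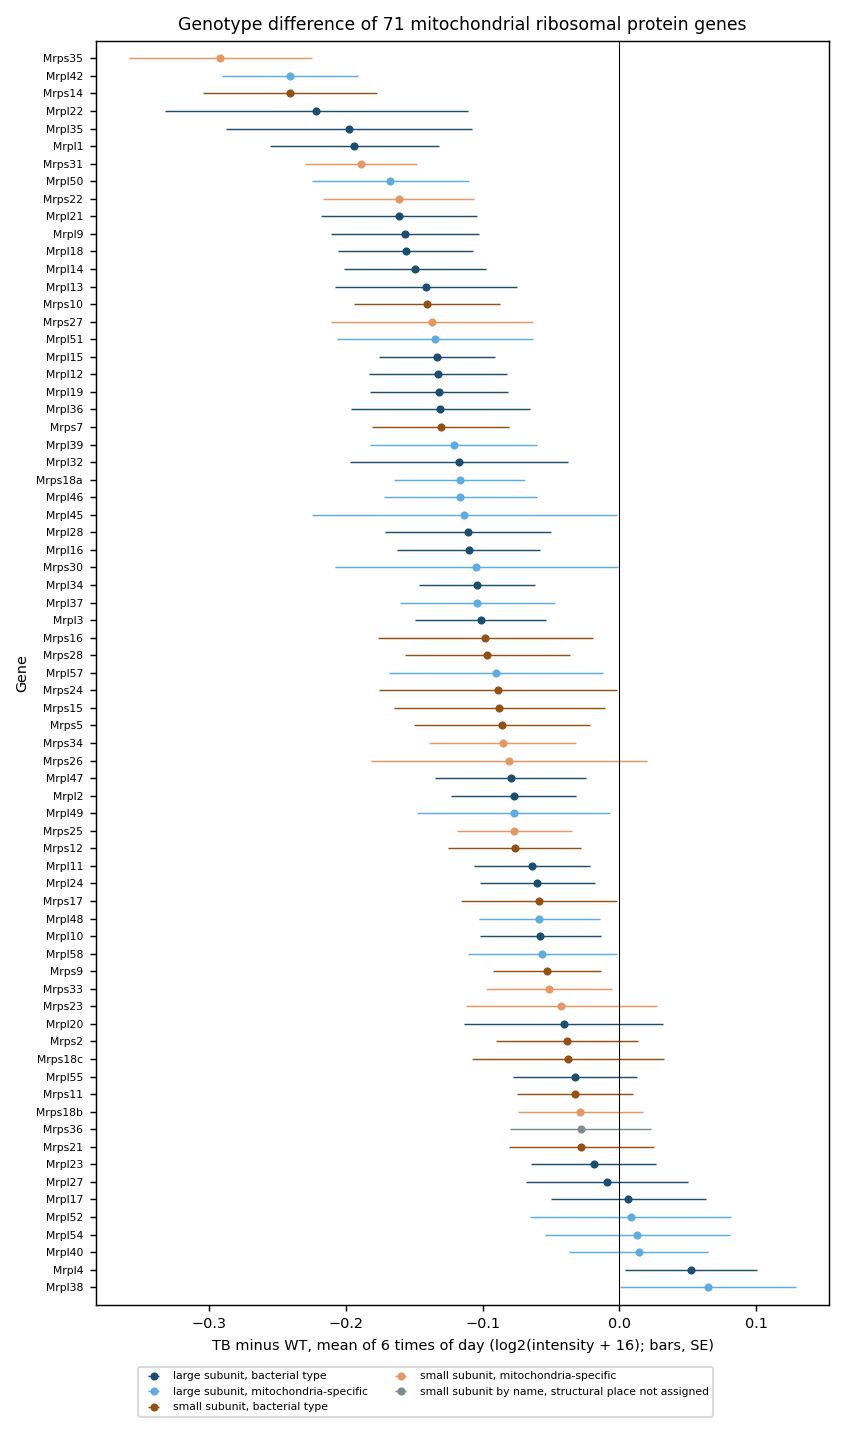
Difference between TB and WT for each of the 71 genes, as the mean over 6 times of day on the log2(intensity + 16) scale (points, bars are SE from the limma fit over 36 arrays), sorted by size and coloured by class. Points of 65 genes lie left of 0, from −0.29 for Mrps35 to 0.065 for Mrpl38 at the right.

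Mrpl42, a mitochondria-specific protein of the large subunit, had log2 values from 8.84 to 9.24 in the 18 WT arrays (median 9.08) and from 8.37 to 9.15 in the 18 TB arrays (median 8.83). The ranges of the genotypes overlapped over the whole day but not at ZT 8, 12 and 20. At ZT 8 the WT arrays read 8.90, 8.85 and 8.84 and the TB arrays 8.63, 8.37 and 8.51. At ZT 12 the WT arrays read 9.17, 9.08 and 9.19 and the TB arrays 8.64, 8.61 and 8.85. All 3 TB arrays were thus under all 3 WT arrays at both times. The TB mean was lower at all 6 times, and the difference over the day was −0.24 ± 0.050 (SE, adjusted p = 0.0378 in limma), with WT 1.18-fold over TB. Within the array sets the difference was −0.24 (larger) and −0.24 (smaller). The call was lost when any 1 of 18 of the 36 arrays was left out, with differences from −0.26 to −0.22 over all 36 omissions. Those 18 were WT replicates 1 and 3 at ZT 0, 2 at ZT 4, 1 and 3 at ZT 8, 2 at ZT 12, 1 and 2 at ZT 16 and 1, 2 and 3 at ZT 20, and TB replicates 1 and 3 at ZT 4, 3 at ZT 8, 1 and 2 at ZT 12, 2 at ZT 16 and 2 at ZT 20.

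Mrps31, a mitochondria-specific protein of the small subunit, had log2 values from 8.05 to 8.40 in WT (median 8.16) and from 7.68 to 8.25 in TB (median 7.96). WT was narrow, with SDs of 0.02 to 0.09 within its 6 groups. At ZT 4 the WT arrays read 8.40, 8.26 and 8.25 and the TB arrays 8.06, 7.88 and 7.87. At ZT 16 they read 8.12, 8.19 and 8.06 in WT and 8.02, 7.68 and 7.96 in TB. The 2 groups did not overlap at ZT 0, 4, 12 and 16, but did at ZT 8 and 20, where TB reached 8.16 and 8.25. The difference over the day was −0.19 ± 0.041 (SE, adjusted p = 0.0461 in limma), with WT 1.14-fold over TB, and TB was lower at 5 of 6 times. Within the array sets it came to −0.24 (larger) and −0.084 (smaller). The call held when any 1 of 7 arrays was left out (WT ZT 8 replicate 2, WT ZT 12 replicate 1, TB ZT 0 replicate 3, TB ZT 4 replicate 1, TB ZT 8 replicate 2, TB ZT 16 replicate 1 and TB ZT 20 replicate 1) and was lost on leaving out any other, with differences from −0.21 to −0.17 over the 36 omissions.

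Mrps35, another mitochondria-specific protein of the small subunit, differed most in size but missed the threshold. Its log2 values ran from 6.85 to 7.41 in WT (median 7.18) and from 6.38 to 7.36 in TB (median 6.95), so the genotypes overlapped widely. The difference was −0.29 ± 0.067 (adjusted p = 0.0625 in limma), lower in TB at all 6 times. The larger array set gave −0.35, the smaller −0.17.

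**Figure D2:**
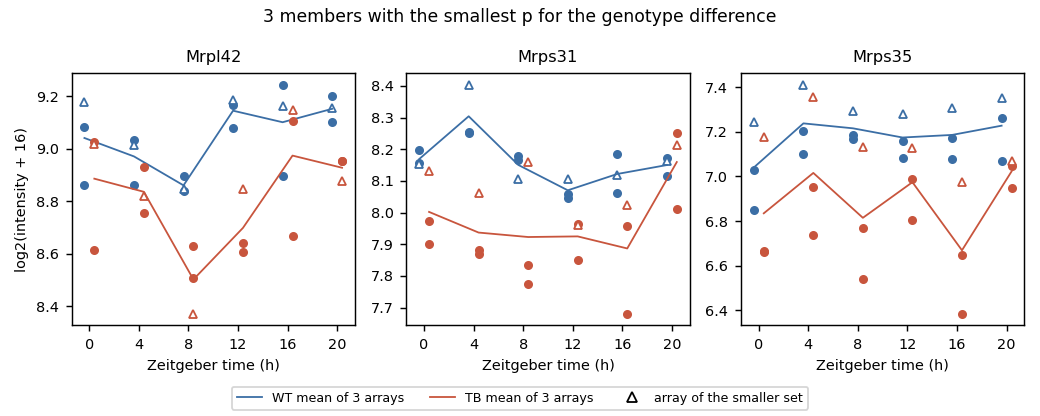
Log2(intensity + 16) of Mrpl42, Mrps31 and Mrps35 on each array (filled circles, larger set of arrays, open triangles, smaller set) against Zeitgeber time in h, with lines through the means of 3 arrays. Mrpl42 was lower in TB by 0.24 on average, with TB arrays from 8.37 to 8.63 at ZT 8.

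The classes of ribosomal protein had similar medians. In the large subunit 39 of 45 genes were below 0 (median −0.10), and in the small subunit all 25 that could be placed there (median −0.085). Within the large subunit, 26 of the 28 proteins of bacterial type were below 0 (median −0.11, 0 called). Among them Mrpl18 (−0.16 ± 0.049), Mrpl15 (−0.13 ± 0.042) and Mrpl1, a protein of the stalk where transfer RNA leaves (−0.19 ± 0.062), had the smallest p without passing the test. In the larger array set they differed by −0.26, −0.18 and −0.28, and in the smaller by 0.045, −0.033 and −0.024. Mrpl12, a protein of the stalk that recruits translation factors, differed by −0.13 ± 0.051 with −0.12 from the larger array set and −0.16 from the smaller. Of the 17 mitochondria-specific proteins of the large subunit 13 were below 0 (median −0.10), with Mrpl42 the 1 called. The exceptions above 0 were Mrpl38 (0.065 ± 0.065), Mrpl40 (0.014 ± 0.051), Mrpl54 (0.013 ± 0.068) and Mrpl52 (0.0082 ± 0.073), and in the bacterial type Mrpl4 (0.052 ± 0.048) and Mrpl17 (0.0065 ± 0.057), each within about 1 SE of 0. Mrps30, which despite its name sits in the large subunit, differed by −0.10 ± 0.10.

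In the small subunit, all 15 proteins of bacterial type (median −0.086, 0 called) and all 10 mitochondria-specific ones (median −0.083, with Mrps31 the 1 called) were below 0. Mrps14 differed by −0.24 ± 0.064 (adjusted p = 0.123 in limma), but its values were near the dim end, from 4.61 to 5.59. The larger array set gave −0.17 and the smaller −0.38. Mrps22, in which inherited defects cause mitochondrial disease, differed by −0.16 ± 0.055, with −0.26 from the larger array set and 0.042 from the smaller. Mrps12, part of the decoding centre, differed by −0.077 ± 0.049. The paralogs Mrps18a, Mrps18b and Mrps18c occupy different places, the first in the large subunit. They differed by −0.12 ± 0.048, −0.029 ± 0.046 and −0.037 ± 0.070, and none passed the test. Mrps36, named as a small subunit protein but not placed in the ribosome here, differed by −0.028 ± 0.052.

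By time of day, the median difference between the genotypes was largest in size at ZT 16 and smallest at ZT 20, although a dependence on time was called for 0 members. The median over the members was −0.039 at ZT 0, −0.089 at ZT 4, −0.13 at ZT 8, −0.14 at ZT 12, −0.18 at ZT 16 and −0.011 at ZT 20. From ZT 0 to ZT 20 the larger array set gave −0.15, −0.12, −0.20, −0.21, −0.20 and 0.022. The smaller set, with 1 array of each group, gave 0.17, −0.018, 0.045, −0.048, −0.061 and −0.093, so the sign differed between the sets at ZT 0, 8 and 20. From ZT 0 to ZT 20 the genes below 0 numbered 45, 56, 60, 67, 62 and 41 of 71, where all genes had 44.2%, 51.3%, 55.1%, 46.5%, 44.4% and 47.7%. No member passed the test at any single time (limma, with 0%, 0%, 0.00451%, 0%, 0% and 0% of all genes called), and at an unadjusted p under 0.05 there were 3, 2, 5, 9, 8 and 0 members (4.23%, 2.82%, 7.04%, 12.7%, 11.3% and 0%), against 4.74%, 3.26%, 5.3%, 7.41%, 5.38% and 1.81% of all genes. Over the 6 times, 17 members (23.9%) were lower in TB at each time, against 2.96% of all genes, and 26 at 5 times.

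The number of members with all 3 TB arrays under all 3 WT arrays was 6 at ZT 0 (8.45% against 2.2% of all genes), 9 at ZT 4 (12.7% against 4.58%), 10 at ZT 8 (14.1% against 5.85%), 10 at ZT 12 (14.1% against 4.26%), 13 at ZT 16 (18.3% against 5.36%) and 2 at ZT 20 (2.82% against 3.3%). The reverse, all TB over all WT, held for 3, 0, 1, 0, 0 and 2 members, against 4.27%, 4.8%, 3.54%, 6.79%, 7.98% and 3.26% of all genes. Genes with the smallest p at a time were, for ZT 0, Mrpl23 (0.32 ± 0.11) and Mrpl46 (−0.36 ± 0.14), for ZT 4, Mrps31 (−0.37 ± 0.10) and Mrps14 (−0.43 ± 0.16), and for ZT 8, Mrpl42 (−0.36 ± 0.12) and Mrpl1 (−0.44 ± 0.15). For ZT 12 they were Mrpl42 (−0.45 ± 0.12) and Mrpl21 (−0.42 ± 0.14), for ZT 16, Mrpl9 (−0.46 ± 0.13) and Mrps35 (−0.52 ± 0.16), and for ZT 20, Mrpl42 (−0.22 ± 0.12) and Mrps21 (−0.17 ± 0.13). None passed the test. A dependence of the genotype difference on time was called for 0 members and 0% of all genes, with 1 member (1.41%), Mrpl23, at an unadjusted p under 0.05, against 2.48% of all genes. Mrpl1 and Mrpl2 had the next smallest p for it. Mrpl23, a protein near the exit of the peptide tunnel, read 7.36 ± 0.23 in TB and 7.04 ± 0.04 in WT at ZT 0, and 7.07 ± 0.06 in TB and 7.29 ± 0.10 in WT at ZT 8 (SD, n = 3).

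Each array was placed by the median, over the 71 genes, of its log2 value minus the gene's mean over all arrays. WT arrays lay between −0.065 and 0.13, and TB arrays between −0.20 and 0.13, with an SD of 0.074 within groups. The lowest TB array was ZT 8 replicate 1 and the highest was ZT 20 replicate 1. Of the WT arrays, the lowest was ZT 8 replicate 2, from the smaller set. At ZT 0 the TB arrays read −0.12, −0.092 and 0.13, and the last belonged to the smaller set. At ZT 16 the WT arrays read 0.088, 0.13 and 0.11 and the TB arrays −0.0012, −0.16 and −0.011, with no overlap. The muscle-bearing WT array read 0.021, and without it 67 members were below 0 and the median was −0.10, with 1 member called.

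**Figure D3:**
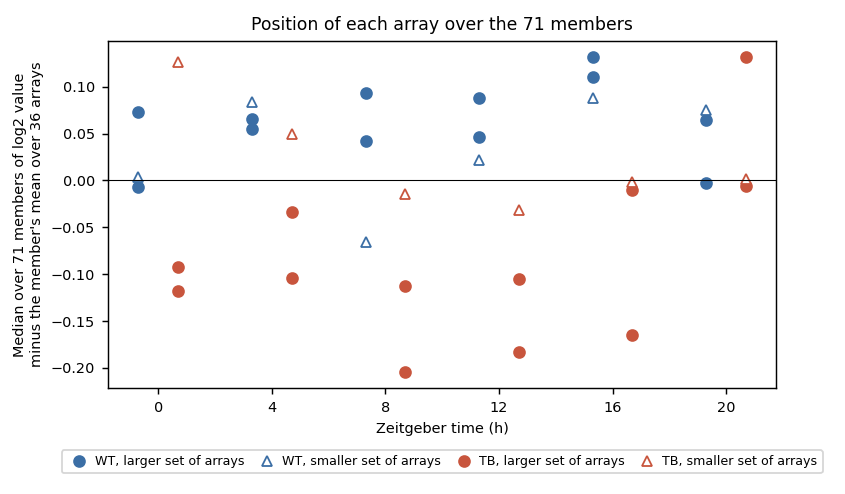
Median over the 71 genes of each array's log2 value minus the gene's mean over 36 arrays, against Zeitgeber time in h, for WT (left of each time) and TB (right), with filled circles for the larger set of arrays and open triangles for the smaller. TB circles reach −0.20 at ZT 8, while TB triangles lie between −0.032 and 0.13.

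The lower values in TB were seen in the larger set of arrays and not, as a group, in the smaller. In the larger set 67 of 71 genes (94.4%) were below 0, against 48.8% of all genes, with a median of −0.14. There 21 members (29.6%) were called lower by limma, against 3.7% of all genes. The set was cut by within-group deviations of these same arrays, which can narrow the spread that limma uses as error. Over all genes the calls, lower or higher, rose from 39 on all arrays to 1152 there, so these calls are descriptive. In the smaller set 33 (46.5%) were below 0, against 41.2% of all genes, with a median of 0.0018, against 0.027 over all genes. In that set 0 members and 0% of all genes were called, and 7 members (9.86%) had an unadjusted p under 0.05, against 8.89% of all genes. A test of the genotype difference between the sets, chosen after seeing the data, called 1 member and 0.694% of all genes. At an unadjusted p under 0.05 it gave 28 members (39.4%), against 19.6% of all genes. The member called was Mrpl57, a small mitochondria-specific protein of the large subunit, at −0.22 for the larger set and 0.16 for the smaller (adjusted p = 0.0490 in limma). In WT its 3 arrays read 7.52, 7.52 and 6.88 at ZT 0 and 6.76, 7.61 and 7.44 at ZT 16, and in each case the low array was the 1 of the smaller set. In TB the ZT 0 arrays read 7.13, 7.14 and 7.18, and the ZT 16 arrays 7.19, 7.30 and 7.31. The sets were taken from deviations within groups, so every group holds arrays of both by construction. A batch that follows genotype could not be seen in this way and was not tested. The median over members thus differed between the sets (−0.14 against 0.0018), while the test gene by gene called Mrpl57 alone. The smaller set has 1 array of each group, so its median rests on few arrays. Whether the members as a group differ between the sets was not tested.

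**Figure D4:**
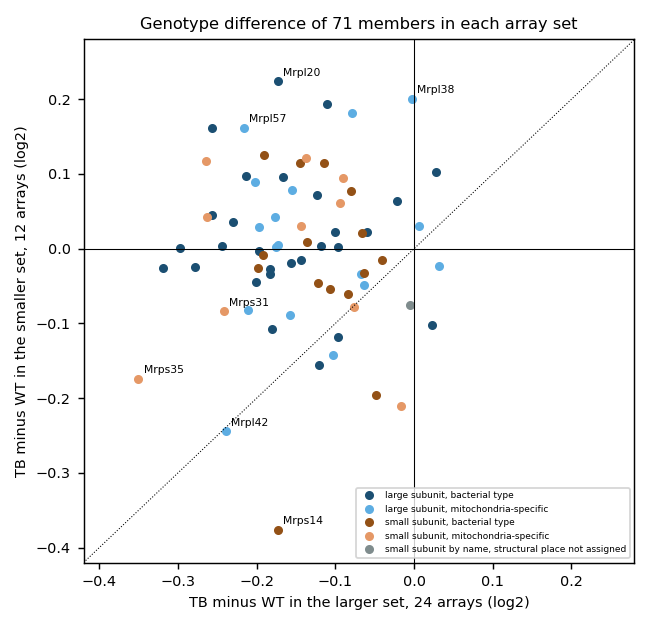
TB minus WT difference (log2) of each of the 71 genes in the smaller set of 12 arrays against that in the larger set of 24, coloured by class, with a dotted line of equality. The points of 67 genes lie left of 0 but only 33 lie below 0, and Mrpl42 lies on the line at −0.24 in both.

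Over both genotypes the share of members called rhythmic was close to that of all genes, and so was the median amplitude. With a 24 h cosine fitted per genotype, 2 members (2.82%) were called rhythmic in WT by limma, against 6.45% of all genes, and 6 (8.45%) in TB, against 4.95%. Over both genotypes 11 were called (15.5%), against 12.3% of all genes. The median amplitude, the height of the fitted cosine over its mean, was 0.065 log2 over the members and 0.069 over all genes. Of the 11 rhythmic members, 10 peaked between ZT 16 and 24, within the dark phase, against 33.5% of the 2736 rhythmic genes in all. Over all 71 genes, whether called or not, 37 (52.1%) had their fitted peak there, against 26.7% of all genes. This window is only the later part of the dark phase. It was not among the planned settings, so both contrasts are descriptive.

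Mrpl34, a small bacterial-type protein of the large subunit, was called in both genotypes. Its WT arrays read 8.34, 8.36 and 8.27 at ZT 0 and 7.71, 7.74 and 8.07 at ZT 8, then 8.32, 8.39 and 8.44 at ZT 16. Its TB arrays read 8.24, 8.16 and 8.37 at ZT 0, 7.89, 7.83 and 7.94 at ZT 8 and 8.12, 8.23 and 8.23 at ZT 16. In both genotypes every ZT 8 array was under every ZT 0 and ZT 16 array. The amplitude was 0.23 in WT, with a peak at ZT 19.3 (adjusted p = 0.0022), and 0.23 in TB, with a peak at ZT 20.7 (adjusted p = 0.00268, both limma). Its promoter stretch holds an ETS word.

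Mrps9, a bacterial-type protein of the small subunit that touches transfer RNA, was the only rhythmic member with a peak outside ZT 16 to 24. Its WT arrays read 6.98, 6.99 and 6.92 at ZT 0 and 7.28, 7.40 and 7.41 at ZT 8, and 7.07, 7.05 and 7.06 at ZT 20, so that ZT 8 overlapped neither of the other times. The WT amplitude was 0.19 with a peak at ZT 10.3 (adjusted p = 0.00314 in limma). The TB arrays read 7.07, 7.05 and 7.02 at ZT 0 and 7.26, 7.27 and 7.17 at ZT 8, again without overlap. The TB amplitude was 0.12 with a peak at ZT 10.6 and missed the threshold (adjusted p = 0.134 in limma). Over both genotypes the amplitude was 0.16 with a peak at ZT 10.4.

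Mrps27, a mitochondria-specific protein with helical repeats that bind RNA, had the highest amplitude over both genotypes, 0.27, with a peak at ZT 22.0. It was called in TB (amplitude 0.36, adjusted p = 0.00397), where the group means fell from 7.37 ± 0.30 at ZT 0 to 6.69 ± 0.09 at ZT 8 (SD, n = 3). In WT its amplitude was 0.19 and the adjusted p 0.260 in limma, with SDs up to 0.36 within groups. Mrps16, a bacterial-type protein of the small subunit, followed at 0.27 with a peak at ZT 22.2. Its second probe set had an amplitude of 0.097 with a peak at ZT 14.2 and an adjusted p of 0.534 in limma, and with the mean of both probe sets the call was lost, so this rhythm rests on 1 probe set.

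Mrpl36, the smallest bacterial-type protein of the large subunit, had an amplitude of 0.20 and a peak at ZT 21.5, and was called in TB (0.27, adjusted p = 0.0228). Its second probe set had an amplitude of 0.045 (adjusted p = 0.837) and correlated with the one used at r = −0.28 over the 36 arrays. Mrpl15, Mrps22 and Mrpl42 were also called in TB, with amplitudes of 0.17, 0.23 and 0.20 and peaks at ZT 20.8, 22.9 and 20.3. Mrpl16 (0.15, peak at ZT 20.9), Mrps21 (0.14, ZT 17.0) and Mrpl21 (0.13, ZT 22.3) were called over both genotypes only. Mrpl42 was thus called both for its rhythm and for its lower level in TB. In the larger array set alone 8 of the 11 stayed called, all but Mrpl42, Mrpl21 and Mrpl16, with amplitudes of the 11 from 0.11 (Mrpl16) to 0.25 (Mrps27). In the smaller set Mrps16 alone was called, with amplitudes from 0.096 (Mrps21) to 0.35 (Mrps16). Over the alternative settings, the genes called rhythmic over both genotypes numbered 303 to 3590 of all genes, against 2736 as reported. Leaving out 1 array at a time kept 9 of the 11 calls in every case. Mrps21 lost its call without WT ZT 4 replicate 3, WT ZT 16 replicate 2, TB ZT 16 replicate 1 or TB ZT 16 replicate 3 (amplitudes 0.12 to 0.13). Mrpl21 kept its call in 8 of 36 omissions (WT ZT 0 replicate 3, WT ZT 8 replicate 1, WT ZT 12 replicate 2, WT ZT 16 replicate 3, WT ZT 20 replicate 3, TB ZT 0 replicate 1, TB ZT 8 replicate 2 and TB ZT 12 replicate 3), with amplitudes from 0.12 to 0.16 over all omissions.

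**Figure D5:**
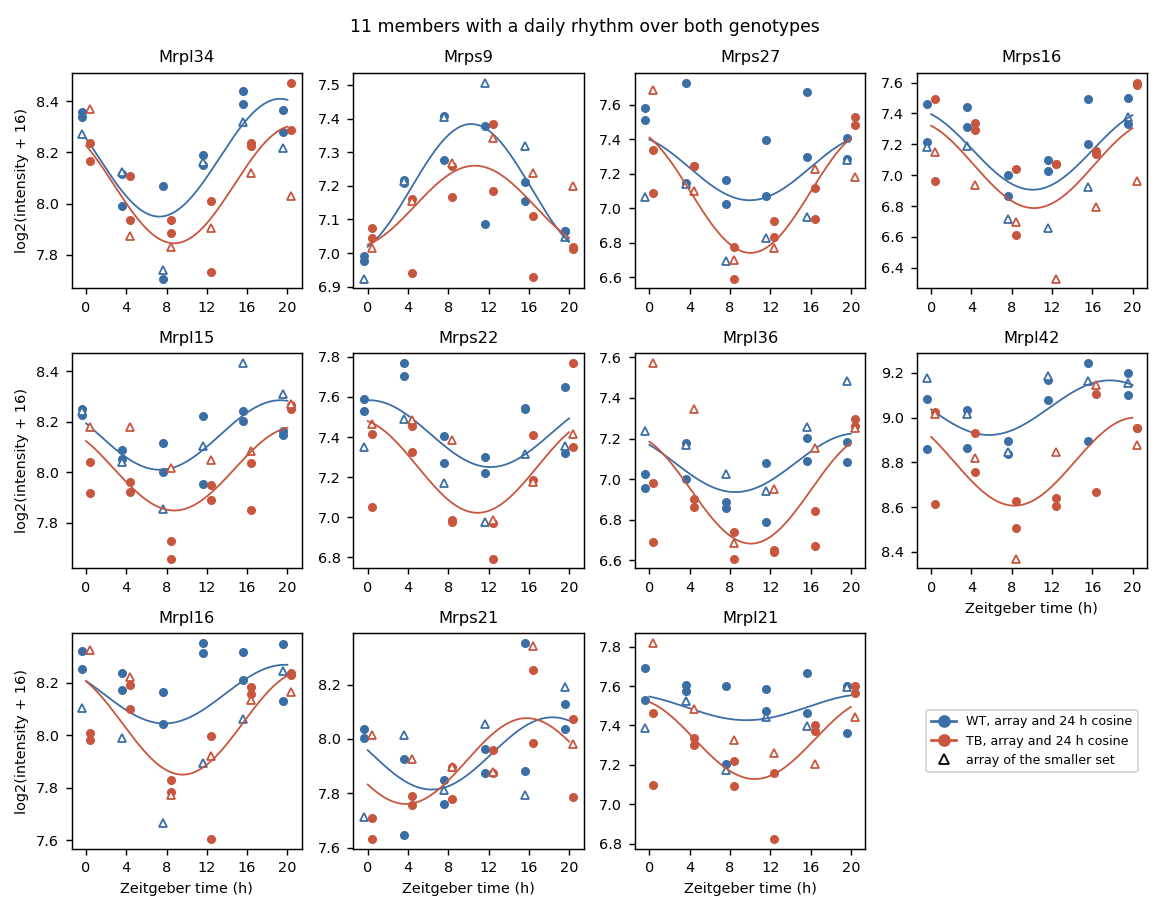
Log2(intensity + 16) against Zeitgeber time in h for the 11 members with a daily rhythm over both genotypes, in order of p (filled circles, larger set of arrays, open triangles, smaller set, lines, the 24 h cosine fitted in each genotype). The peak fitted over both genotypes lies between ZT 16 and 24 for all but Mrps9 (ZT 10.4), and the amplitude over both genotypes runs from 0.13 for Mrpl21 to 0.27 for Mrps27.

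A difference in rhythm between the genotypes was called for 0 members and 0% of all genes, with 4 members (5.63%) at an unadjusted p under 0.05, against 4.8% of all genes. The smallest p belonged to Mrpl23 (amplitude 0.13 with a peak at ZT 16.2 in WT, 0.17 at ZT 22.3 in TB), Mrpl1 (0.11 at ZT 5.86, 0.20 at ZT 22.4) and Mrpl48 (0.098 at ZT 13.2, 0.076 at ZT 3.95). A call in TB and none in WT is therefore not shown to be a difference between them.

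Genes that work with the mitochondrial ribosome lay to the same side in TB. All 12 mitochondrial translation factors were below 0 (median −0.14), and Mtif2, the initiation factor, was lower (7.42 in WT, 7.23 in TB, −0.20 ± 0.042, adjusted p = 0.0427 in limma). Of 23 genes for ribosome assembly and ribosomal RNA modification, 18 were below 0 (median −0.075, 0 called), with the smallest p for the GTPase gene Mtg1 (−0.12 ± 0.045) and Tfb1m, which methylates the small ribosomal RNA (−0.14 ± 0.053). Of 19 genes for expression of the mitochondrial genome, 17 were below 0 (median −0.076, 0 called), led by Lrpprc, which stabilises mitochondrial messenger RNA (−0.15 ± 0.046), and Trmt10c of mitochondrial RNase P (−0.14 ± 0.050). This list also holds Rnmt, a nuclear cap methyltransferase that does not belong there. In the smaller set of arrays the medians of these 3 lists were −0.0035, 0.048 and 0.060, against −0.21, −0.11 and −0.13 in the larger, with no test of the difference.

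Ribosomal proteins outside the naming rule were in the same direction but not called, with Gadd45gip1 at −0.17 ± 0.069, Dap3, a GTP-binding protein of the small subunit, at −0.037 ± 0.065 and Ptcd3 at −0.14 ± 0.28. The products of mitochondrial translation join nuclear-encoded subunits of the respiratory chain and ATP synthase. Genes for such subunits were taken by the start of their names, which can also take in assembly factors. Of these 89 genes 80 were below 0 (median −0.13). Among them Atp5k (−0.27 ± 0.052, adjusted p = 0.0275) and Uqcrfs1, the Rieske protein (−0.19 ± 0.041, adjusted p = 0.0488, both limma), were called lower. That list kept a median of −0.094 in the smaller set, with 71 of 89 below 0, where the ribosomal proteins had 33 of 71. The difference between these lists was not tested. The cytosolic ribosomal proteins, named Rpl and Rps, showed no such shift, with 25 of 63 below 0, a median of 0.0073 and 0 called. Of 9 regulators of mitochondrial biogenesis 5 were below 0 (median −0.014, 0 called), with Myc at −0.31 ± 0.14, Gabpa at −0.083 ± 0.043, Nrf1 at 0.021 ± 0.047, Yy1 at −0.014 ± 0.038 and Ppargc1a at 0.045 ± 0.13.

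Within groups the 71 genes also varied together to some extent. The Pearson correlation of 2 members' deviations from their group means over the 36 arrays averaged 0.162 over 2485 pairs, against 0.0981 for the respiratory chain, 0.134 for cytosolic ribosomal proteins and 0.0136 over all pairs of genes. All pairs share the same arrays, so the array sets and RNA quality enter these values, and their part was not tested. The median SD within groups was 0.164 log2 for the members and 0.184 for all genes.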

How the data were processed

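RNA of mouse liver was measured on 36 Affymetrix arrays. The deposited values are linear intensities per probe set, made by the authors with Affymetrix Expression Console 1.1.1 and PLIER 2.0 per the submitters' processing notes. How these tools were set, and how arrays were normalized, is not given in the sources used. No 2 arrays held identical values. Of 41345 probe sets 23521 had 1 gene symbol, 1814 several and 16010 none. Of those with 1 symbol, 99.2% matched RefSeq (GRCm38.p6) by gene identifier. The probe set with the highest mean was kept per gene.

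Values were turned into log2(intensity + 16) and fitted by lmFit and eBayes (limma 3.58.1, R 4.3.3) as 12 group means for genotype and as a mean, cosine and sine of 24 h per genotype for rhythm. P-values are two-sided and adjusted by Benjamini-Hochberg over 22180 genes. No set test was made, and lists are described by counts and medians. Precision is limited by the 3 arrays of each group. The fits were run on simulated data with known changes and independent noise per gene and array. Those data held no array sets and no replicate pairing, so they do not bear on the effect of either. Alternatives covered the pseudocount, normalization, centring, a filter on dim genes, probe sets, blocks, weights, array sets, Xist as a covariate and each array left out.

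The members, gene lists and array sets were chosen with earlier results of these data known. Genes named are the members past the threshold, the 8 with the smallest p for the genotype difference, the 2 or 3 with the smallest p where none passed, the most extreme members and a fixed list (Mrpl12, Mrpl42, Mrps12, Mrps18a, Mrps18b, Mrps18c and Mrps30), and for related lists the genes past the threshold or the 2 with the smallest p. Others, such as members above 0, Mrps36, Mrpl57, Dap3, Ptcd3, Nrf1, Yy1 and Ppargc1a, were named after their values were seen. The alleles of the TB model are not reported here.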

Additional observations from a re-analysis of the deposited data

How the results depend on the processing

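The count of members called for the genotype difference, 2 as reported, changed with most settings. It was 0 with a pseudocount of 1 or with Xist as a covariate, 1 with limma's trend and robust options, 5 with the array set as a block, 12 with array weights, 21 in the larger array set and 0 in the smaller, and ran from 0 to 4 with 1 array left out. For the genotype difference, all genes called numbered 39, and 15, 14, 151, 627, 1152 and 0 under pseudocount 1, Xist, the set block, weights, the larger and the smaller set. The number of members below 0, 65 as reported, was 33 in the smaller set, where the median over members turned from −0.090 to 0.0018. Rhythm in WT, 2 as reported, was called for 4 members with quantile normalization and with the set block, 0 in the smaller set and 1 with a 6-level time factor. Rhythm in TB, 6 as reported, was called for 3 with a pseudocount of 1, in the larger set and with Xist, 10 with median centring, 11 with array weights, 0 in the smaller set, 1 with the time factor, 2 with the 18 arrays of the genotype alone, and 2 to 9 with 1 array left out. Rhythm over both genotypes, 11 as reported, was called for 1 in the smaller set. Calls over all genes moved too. Over these settings they ran from 16 to 2138 for rhythm in WT (1431 as reported) and from 19 to 1994 in TB (1099 as reported). Over both genotypes they ran from 303 to 3590 (2736 as reported). With 1 array left out, rhythm in TB was called for 759 to 1501 of all genes. Genotype by time, differential rhythm and the single times gave 0 members under every setting run. The causes of these changes were not tested. The median difference of all genes stayed between −0.018 and 0.027.

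Same-numbered WT and TB arrays at a ZT had correlated deviations (r from −0.052 to 0.41, over 0.1 in 14 of 18 pairs). WT and TB arrays of the smaller set share their replicate number at every ZT. Pairing was taken as shown only where every pair was over 0.1, so no block was put in the reported fit. The replicate block gave 1 member for the genotype difference, without Mrps31. The replicate block within each ZT gave 2, also without Mrps31. Not run were the smaller set for single times and genotype by time, with no residual freedom, and the block within ZT for rhythm.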

Other observations

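For the 9 members with a second probe set, that probe set and the one used did not always move together. The second probe set had a TB minus WT difference of 0.071 ± 0.059 for Mrpl10, 0.042 ± 0.072 for Mrpl36, 0.088 ± 0.073 for Mrps5 and 0.012 ± 0.058 for Mrps18c, where the one used was below 0. It was below 0 for Mrpl12 (−0.099 ± 0.095), Mrpl47 (−0.0079 ± 0.088), Mrps16 (−0.17 ± 0.082), Mrps17 (−0.11 ± 0.21) and Mrps18b (−0.13 ± 0.071). The correlation of the 2 probe sets over the 36 arrays ran from −0.48 for Mrps18c to 0.49 for Mrps17. Which transcript parts these probe sets read was not analysed here.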
